A study of Mus musculus with 6 samples.

Results

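The 10 transcription factors of squamous and secretory epithelia described here were followed through the mouse uterus after neonatal exposure to diethylstilbestrol (DES), an estrogenic drug. They were chosen by name as Trp63, Grhl1, Grhl2, Grhl3, Klf5, Ovol1, Spdef, Elf3, Ehf and Elf5, and all 10 were among the 24077 genes of the single-cell table and the 30828 genes of the section tables. Female CD-1 pups received corn oil (CO) or DES at 1 mg/kg/day by subcutaneous injection on neonatal days 1 to 5, and uteri were taken at 12 months of age. The CO mice were in estrus, the stage in which adults given DES remain. Single cells came from 1 CO library (32387 cells, 12253 with a cell type) and 1 DES library (16312 cells, 9701 with a cell type). Each was made from the pooled uterine horns of more than 1 mouse, and whole-library levels include the cells without a type. Spatial transcriptomics used 4 Visium sections on 1 slide, CO A, CO B, DES A and DES B, each from 1 mouse, cored from tissue blocks, after a pathologist had examined sections for epithelium and, in DES, for adenocarcinoma.

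These factors act in layered or gland-forming epithelia. The p63 protein, made from Trp63, maintains basal cells of stratified epithelia, and the Grainyhead-like factors Grhl1, Grhl2 and Grhl3 control cell junctions and barrier formation. Ovol1 and Klf5 act in epithelial differentiation and growth. Spdef, Elf3, Ehf and Elf5 are the epithelium-specific branch of the Ets family, and Spdef is known for driving mucous (goblet) cell differentiation. A healthy adult mouse uterus is lined by simple columnar epithelium with glands beneath it, without a basal cell layer.

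The promoters of Grhl1, Grhl3 and Spdef are shown because these members were far higher in the DES sections; Trp63, which was too, had no promoter entry. Promoter entries existed for 5 of the 10 members, namely Grhl1, Grhl3, Spdef, Elf3 and Elf5, and the 3 below are the 250 bases before the RefSeq start on GRCm38.p6, written 5′ to 3′ on the gene's own strand. Capitals mark CACCC, the core of sites bound by Klf factors, on either strand.
Grhl1 (chr12:24572037-24572286, plus strand): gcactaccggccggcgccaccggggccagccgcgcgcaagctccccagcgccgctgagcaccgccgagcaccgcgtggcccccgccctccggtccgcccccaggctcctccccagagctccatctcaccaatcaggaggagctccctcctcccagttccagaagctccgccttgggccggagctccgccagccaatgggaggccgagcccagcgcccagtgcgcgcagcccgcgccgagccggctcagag
Grhl3 (chr4:135573633-135573882, minus strand): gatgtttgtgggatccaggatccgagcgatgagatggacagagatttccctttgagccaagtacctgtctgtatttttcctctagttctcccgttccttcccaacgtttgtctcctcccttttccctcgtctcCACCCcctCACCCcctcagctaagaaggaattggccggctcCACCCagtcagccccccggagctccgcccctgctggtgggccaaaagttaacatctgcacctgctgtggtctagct
Spdef (chr17:27728952-27729201, minus strand): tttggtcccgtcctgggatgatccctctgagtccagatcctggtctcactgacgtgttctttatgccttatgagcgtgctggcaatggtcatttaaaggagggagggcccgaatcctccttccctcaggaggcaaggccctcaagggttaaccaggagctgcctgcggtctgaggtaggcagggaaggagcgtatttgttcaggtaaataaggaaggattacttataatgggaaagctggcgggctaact
The Grhl3 window held 3 CACCC matches, the first 117 bases before the start, and the windows shown for Grhl1 and Spdef held 0. A second Grhl1 start on RefSeq (chr12:24580469-24580718, plus strand, not shown) had 2 CACCC matches in its window and 52% G and C. CACCC or its complement occurred in 52% of 32851 promoter windows of this length. Neither AACCNGTT, the Grainyhead-like consensus, present in 1.79% of windows, nor GGAAGT, an Ets site present in 19.7%, was found in these 3. The Grhl1 window shown was 75.6% G and C, against 56% for Grhl3 and 52.8% for Spdef.

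The sections held 1357 to 1834 spots and 9117099 to 12506177 unique molecular identifiers (UMIs, 1 per captured transcript). Summed markers gave 1859 to 2957 CPM (UMIs of a gene scaled to a common library total) of 6 epithelial genes in the CO sections and 3211 to 3400 CPM in the DES sections. Immune markers gave 168 and 386 CPM in CO A and CO B and 1658 and 858 CPM in DES A and DES B. Muscle markers gave 13345 to 14168 CPM in CO and 3077 to 3458 CPM in DES. Basal genes (Krt5, Krt14, Krt15 and Col17a1) gave 3.76 and 219 CPM in CO A and CO B against 10497 and 6599 CPM in DES A and DES B. In CO B, 49 of its 1834 spots had 5 or more Krt5 and Krt14 UMIs, and these held 52 of its 72 Trp63 UMIs. Whether these spots adjoin one another was not examined. Per the study's text CO B had a tissue fold, and whether these spots are uterine epithelium is not given in the sources used here. CO A had 0 spots with 5 or more Krt5 and Krt14 UMIs, and DES A and DES B had 71.9% and 74.4%. In sums over a section, more cells of a type and more RNA per cell cannot be told apart. Per the study's text each spot takes in several cells, so intermixed cell types are not separated either.

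Across whole sections, Spdef, Grhl1 and Grhl3 were higher in DES than in CO. Trp63 was higher in both DES sections than in either CO section. That order alone does not set Trp63 apart, since Grhl2, Klf5, Elf3 and Ehf showed it too. Their fitted log2 changes ran from 0.09 for Grhl2 to 0.52 for Ehf, against 4.05 for Trp63. The share of all genes with this order was not counted. Of the 9 members with enough counts to test, 3 were higher and 0 lower in DES by edgeR's quasi-likelihood test (Benjamini-Hochberg adjusted p under 0.05), where 2.67% of 14098 genes were higher, 2.63% lower and 5.3% either. Elf5 had too few UMIs to enter the test, and Spdef reached the low-count filter in 0 and Grhl3 and Trp63 in 1 of the CO sections. These 3 entered through the DES sections, so their tests are not used here and the count is a description. Median log2 change was 0.52 over the 9 members and -0.01 over all genes tested.

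Spdef, which lies on chromosome 17 at 27714352 to 27728955 (GRCm38, minus strand), was at 0.4 and 0.272 CPM in CO A and CO B and at 83.5 and 64.4 CPM in DES A and DES B. The groups were far apart, with 5 and 3 UMIs in the CO sections against 761 and 636 in the DES sections. Pooled counts gave a ratio of 216, with a 95% counting interval of 110 to 502. Spots with at least 1 Spdef UMI made up 0.35% and 0.11% of the CO sections and 21.6% and 20.7% of the DES sections.

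Grhl1 (chromosome 12, 24572283 to 24617391) stood at 2.4 and 1.81 CPM in CO A and CO B and at 50.2 and 46.5 CPM in DES A and DES B. Grhl3 (chromosome 4, 135541888 to 135573630) stood at 1.44 and 0.906 CPM in the CO sections and at 33.1 and 44.2 CPM in the DES sections. Neither gene overlapped between groups, an order that Grhl2, Klf5, Elf3 and Ehf also showed. Its share over all genes was not counted. The log2 change was 4.30 ± 0.24 for Grhl1 (SE, adjusted p = 0.0141, edgeR) and, fitted without use of its test, 4.81 for Grhl3. With DES A or DES B left out the adjusted p of Grhl1 rose to 0.0515 and 0.0604, at changes of 4.26 and 4.30. Grhl2, the third paralog (chromosome 15, 37233036 to 37363569), was at 22.7, 28, 32.7 and 29.6 CPM in the same order of sections, a log2 change of 0.09 with a 95% interval of -0.38 to 0.56.

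Trp63 (chromosome 16, 25683763 to 25892102) was at 0.88 and 6.53 CPM in CO A and CO B and at 75.7 and 63.6 CPM in DES A and DES B. Both DES sections lay above both CO sections, an order that Grhl2, Klf5, Elf3 and Ehf also showed. Most Trp63 UMIs of CO B lay in its 49 spots with 5 or more Krt5 and Krt14 UMIs. The fitted log2 change was 4.05. With the 17 spots of spot cluster 10 of CO B removed, a choice made after seeing the data, it was 4.72, and without CO B altogether it was 6.05. Without CO A it was 3.23, and without DES A or DES B it was 3.95 and 4.13. In those 17 spots, Trp63 reached 158 CPM, from 31 UMIs. The 3′ counts do not tell Trp63 isoforms apart.

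The remaining members did not pass the test. Ehf was at 38.3 and 40.2 CPM in CO and 69.6 and 60.5 CPM in DES (log2 change 0.52, 95% interval 0.11 to 0.93, adjusted p = 0.134, edgeR). Klf5 was at 18.4, 17.8, 32.0 and 23.6 CPM, and Elf3 at 629, 361, 715 and 808 CPM, in the order CO A, CO B, DES A, DES B. Ovol1, at 6.64, 5.44, 6.03 and 4.05 CPM, overlapped between the groups. Elf5 had 4 to 7 UMIs in every section.

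**Figure D1:**
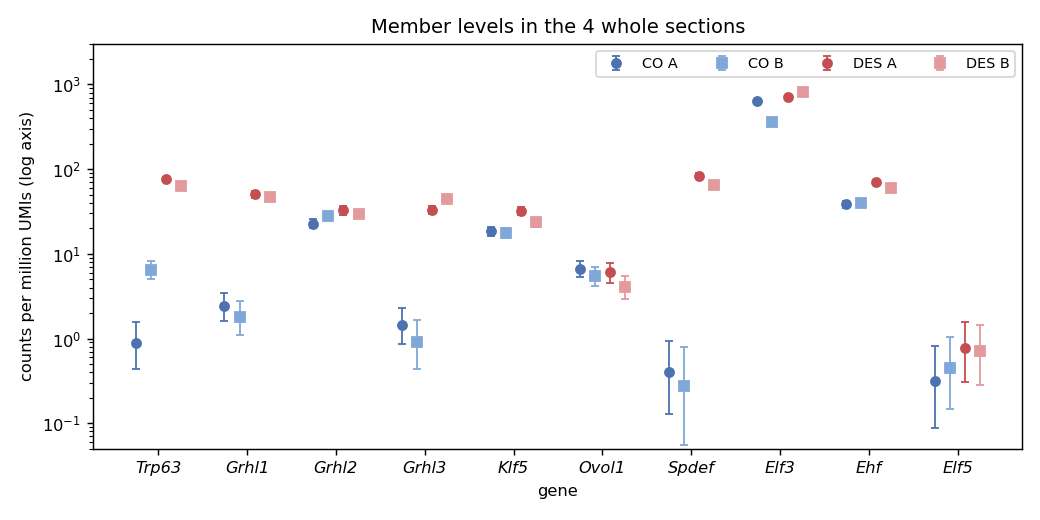
Level of each member in CPM (log axis) in the 4 whole sections, CO A and CO B in blue and DES A and DES B in red, with 95% Poisson intervals as bars. Spdef, Grhl1 and Grhl3 separate the groups by more than 10-fold, whereas Ovol1 overlaps.

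Per 1000 UMIs of the 6 epithelial markers, Spdef stood at 0.135 and 0.146 UMIs in CO A and CO B and at 26.0 and 18.9 in DES A and DES B. Grhl1 stood at 0.811, 0.975, 15.6 and 13.7, and Grhl3 at 0.487, 0.488, 10.3 and 13.0. On this scale Elf3 (213, 194, 223 and 238, highest in the DES sections), Ehf (13.0, 21.7, 21.7 and 17.8) and Klf5 (6.22, 9.56, 9.97 and 6.94) varied by less than 2-fold. Trp63 stood at 0.297, 3.51, 23.6 and 18.7. The scale is not a share of epithelial cells, since the marker genes themselves differed per cell: in non-basal DES cells of the single-cell library Krt8 was at 0.56, Krt19 at 0.539 and Cldn4 at 0.247 of the CO level.

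Epithelium-rich spots were the top 25% of each section by the 6 epithelial markers, 339 to 458 spots a section. Other markers moved in these spots as well: basal genes were at 5 and 282 CPM in CO A and CO B and 11299 and 7441 CPM in DES A and DES B, and immune markers at 75.7, 134, 1645 and 649 CPM. Mesothelial markers were at 0.893 and 1.91 CPM in CO and 25.3 and 35.1 CPM in DES. The part of these in the members' values was not tested. Spdef, Grhl1 and Grhl3 were again higher in DES and made up 3 of the 9 members tested, against 3.73% of 12338 genes higher and 6.14% in either direction, and no member was lower. Spdef reached the low-count filter in 0 CO sections, and Grhl1, Grhl3 and Trp63 in 1, so all 3 called members entered through DES, their tests are not used and the count is a description. The samples are the same 4 sections, so this is not a second experiment.

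Spdef counted 1 UMI in CO A and 0 in CO B in the epithelium-rich spots, and was at 111 CPM in DES A and 99.7 in DES B. Pooled counts gave a DES to CO ratio of 1085 with a 95% counting interval of 194 to 42919, which rests on that single UMI. Grhl1 was at 3.39, 2.12, 64.2 and 59.8 CPM, a fitted log2 change of 4.17. Grhl3 was at 2.32, 1.49, 44.5 and 55.9 CPM, a fitted log2 change of 4.40.

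The other members did not pass the test. Trp63 was at 0.893, 9.77, 76.9 and 70.9 CPM (fitted log2 change 3.55). Klf5 differed by -0.0045 on the log2 scale with a 95% interval of -0.56 to 0.55, and Ehf by 0.12 with an interval of -0.39 to 0.62. Elf3 gave -0.11 with an interval of -0.86 to 0.63, while Ovol1 gave -0.96 with an interval of -1.91 to -0.00 and an adjusted p of 0.185. Grhl2, at 37.0, 52.5, 38.2 and 35.9 CPM, gave -0.56 with an interval of -1.12 to 0.01. The intervals of Klf5, Ehf and Elf3 allow differences in either direction.

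Within the CO sections, 7 of the 9 members tested were higher in epithelium-rich than in other spots (edgeR with section as a block), where 28.7% of 13738 genes were higher and 54.9% differed in either direction. Elf3 had log2 enrichments of 2.07 ± 0.15, Grhl2 2.11 ± 0.19, Ovol1 2.43 ± 0.31, Ehf 1.61 ± 0.20 and Klf5 1.48 ± 0.17 (SE), with adjusted p from 5.61e-06 for Elf3 to 0.000168 for Ovol1. Grhl3 at 1.68 ± 0.47 (adjusted p = 0.0128) and Trp63 at 1.06 ± 0.32 (0.0191) also passed, but without CO B the Trp63 value was 0.11 (adjusted p = 0.931). Grhl1 (0.85, adjusted p = 0.0658) and Spdef (-2.18, adjusted p = 0.116, from 1 UMI in the epithelium-rich and 7 in the other spots) did not pass. Without CO A, Grhl3 lost its call at 1.62 (0.117).

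Within the DES sections, 4 of the 9 members were higher in epithelium-rich than in other spots, against 3.1% of genes higher and 8.95% lower. Spdef led with 111 against 63.7 CPM in DES A and 99.7 against 41.0 CPM in DES B, a log2 enrichment of 0.98 ± 0.16 (SE, adjusted p = 0.00409, edgeR). Grhl3 (0.66 ± 0.15, 0.0229), Grhl1 (0.61 ± 0.15, 0.0258) and Elf3 (0.56 ± 0.14, 0.0318) followed. Trp63 did not, at 0.10 ± 0.15 with an adjusted p of 0.746. The count fell to 2 in DESeq2, to 1 without DES A and to 0 without DES B, and rose to 8 without either CO section.

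The enrichment itself was smaller in DES than in CO for 5 of the 9 members by the test of the difference, against 9.7% of genes smaller and 8.01% larger. The log2 differences were -1.72 ± 0.26 for Grhl2 (SE, adjusted p = 0.00288, edgeR), -1.58 ± 0.46 for Ovol1 (0.0433), -1.52 ± 0.20 for Elf3 (0.0019), -1.01 ± 0.27 for Ehf (0.0303) and -0.98 ± 0.23 for Klf5 (0.0179). DESeq2 made this call for Grhl2 and Elf3 only, and calls lost with a section left out are given below. The 6 marker genes that define the spots moved the same way, from -0.69 for Cldn4 to -1.85 for Cdh1, and Krt18 was 3.79 and 5.40 times higher in epithelium-rich spots of CO A and CO B but 1.86 and 1.90 times in DES A and DES B. All 5 muscle markers moved the other way (median 3.45), as did 2 of 3 mesothelial markers tested. The part of these in the members' values was not tested. Spdef went the other way with 3.16 ± 1.08, which did not pass (adjusted p = 0.0731) and rests on 8 CO UMIs.

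**Figure D2:**
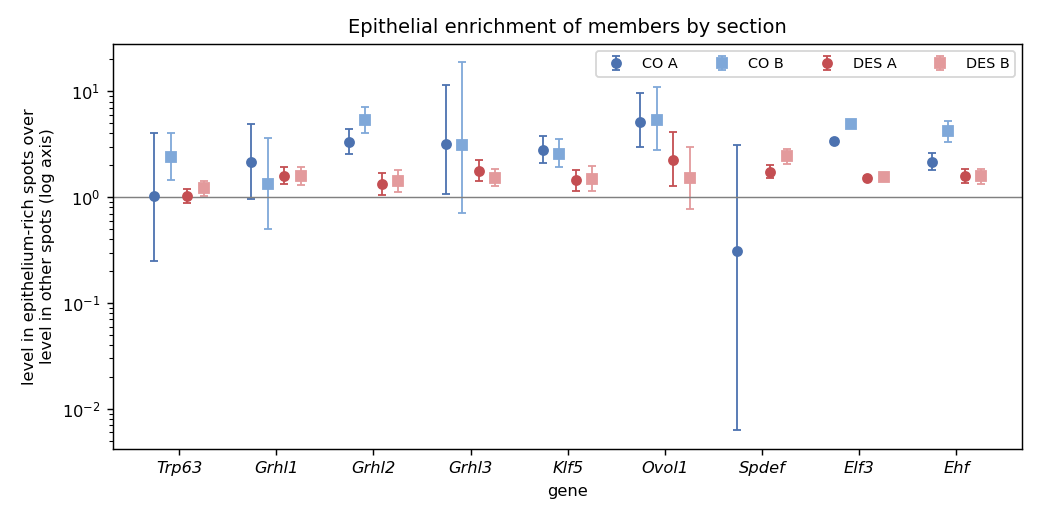
Ratio of each member's level in epithelium-rich spots to that in the other spots of the same section (log axis), CO in blue and DES in red, with 95% counting intervals; the grey line marks equal levels. Grhl2, Elf3, Klf5, Ehf and Ovol1 lie higher in both CO sections than in the DES sections, as does Grhl3 with wide CO intervals. CO B has no point for Spdef because 0 UMIs were seen in its epithelium-rich spots.

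Among epithelium-rich spots of the DES sections, the 33.3% with most Krt5 and Krt14 UMIs (131 spots in DES A and 113 in DES B) were compared with the rest. Of the 9 members tested, 3 were higher and 0 lower, against 4.18% of 10973 genes higher, 4.27% lower and 8.45% either. Spdef was at 171 against 83.4 CPM in DES A and 143 against 80.3 CPM in DES B (log2 difference 0.93 ± 0.13, SE, adjusted p = 6.53e-09, edgeR). Trp63 was at 109 against 62.1 and 102 against 57.1 CPM (0.82 ± 0.14, adjusted p = 6.06e-06).

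Ehf was the third at 109 against 79.1 and 96.1 against 69.2 CPM (0.47 ± 0.14, adjusted p = 0.0171). Each of the 3 was higher in both sections. Grhl1 differed by 0.02 ± 0.16 and Grhl3 by 0.12 ± 0.18, neither near the threshold. The calls on Trp63 and Ehf were not made by DESeq2 (adjusted p of 0.304 and 1.00), and without the section block none of the 3 passed.

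Squamous genes other than the members moved with these spots. Leaving aside Krt5 and Krt14, which chose them, 19 of the 24 squamous genes tested were higher, among them Krt6a (log2 2.02), Krt6b (1.92) and Lypd3 (1.83), keratins and a surface protein of suprabasal cells. The count with both keratins was 21 of 26, and 0 to 23 over the alternatives. The list median was 0.86, against -0.01 over all genes. Secretory genes went both ways, with 5 higher, such as the mucin Muc5ac (1.43) and Wfdc18 (0.64), and 9 lower, such as Cxcl15 (-1.35) and Lcn2 (-1.12), and a median of -0.19. Sox17, a factor of uterine glands, was lower by 2.26 on the log2 scale (adjusted p = 1.18e-13, edgeR), whereas the factors Foxa3 (1.42), Tfap2a (0.94), Pitx1 (0.89) and Creb3l4 (0.80) were higher. The p53 relative Trp73 was higher (0.80) and Ets2 lower (-0.60), leaving the other paralogs uncalled.

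Spdef ran with both mucous and squamous genes across spots. Since each spot takes in several cells, genes that share spots need not share cells. Over all spots, its closest pattern by Pearson's r on log counts was Tff1, a trefoil peptide of mucous cells (r = 0.46 over 1575 spots in DES A and 0.44 over 1357 in DES B), followed in both sections by Krt6a, the gel-forming mucin Muc5b and Sprr1a. Krt6a and Sprr1a are squamous genes, as is Krt13, the fifth in DES B, while Agr2, the fifth in DES A, is secretory. In the 33.3% of epithelium-rich spots with most Agr2, Tff1 and Muc5b, a split chosen after seeing the data on genes that include its nearest ones, so that it restates the pattern above, Spdef was at 228 CPM against 41.2 in DES A and 216 against 34.2 in DES B. The ratios were 5.53 (95% counting interval 4.40 to 7) and 6.30 (4.94 to 8.10). Grhl1 gave 0.99 and 1.06 and Grhl3 0.94 and 1.03 for the same split, with intervals that include 1. Ehf was higher in both sections, at 1.62 (1.30 to 2.02) and 1.65 (1.31 to 2.07), and so was Klf5, at 1.54 (1.10 to 2.16) and 1.60 (1.09 to 2.34). Elf3 was lower in both, at 0.797 and 0.894. Trp63 gave 1.32 in DES A and 0.87 in DES B. These correlations and ratios share spots and depth and are given as a description without a test.

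The nearest genes of Trp63 across spots were Krt14, Ly6d, Anxa8, Sfn and Perp in DES A (r from 0.35 to 0.38) and Krt5, Krt14, Krt15, Ly6d and Fxyd3 in DES B (0.31 to 0.32). Those of Grhl1 began with Olfm4 in DES A (0.30) and Krt19, then Olfm4, in DES B (0.28 and 0.27). All these values were low, and the part of sparse counts in that was not tested.

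The spot clusters given by the authors separated Spdef from its companions. In DES A, cluster 1 (332 spots) had 154 CPM of Spdef and cluster 8 (61 spots) 148, whereas cluster 2 (286 spots) had 9.47 CPM from 23 UMIs. Grhl1 in these 3 clusters was at 65.7, 61.3 and 51.9 CPM and Grhl3 at 44.1, 26.6 and 37.5 CPM, so the cluster with least Spdef still carried both. Cluster 2 had 25.1 CPM of Muc5b against 541 in cluster 1 and 853 in cluster 8.

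Per the study's text, DES B was limited for finding clusters. There, cluster 7 (106 spots) reached 223 CPM of Spdef and clusters 1 and 2 (261 and 228 spots) 54.2 and 27.3 CPM. Grhl1 was at 62.1, 52.3 and 53.9 CPM and Grhl3 at 54.7, 48.5 and 59.6 CPM in these. Muc5b was at 568 CPM in cluster 7 and 60.2 and 27.6 CPM in the other two, and Tff1 at 3963, 175 and 333 CPM. Trp63 followed another order, with 76.2 CPM in cluster 7, 102 in cluster 1 and 49.7 in cluster 2. Krt14 was at 3762, 3054 and 839 CPM in these clusters. Clusters were made from all genes, so differences between them are a description.

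**Figure D3:**
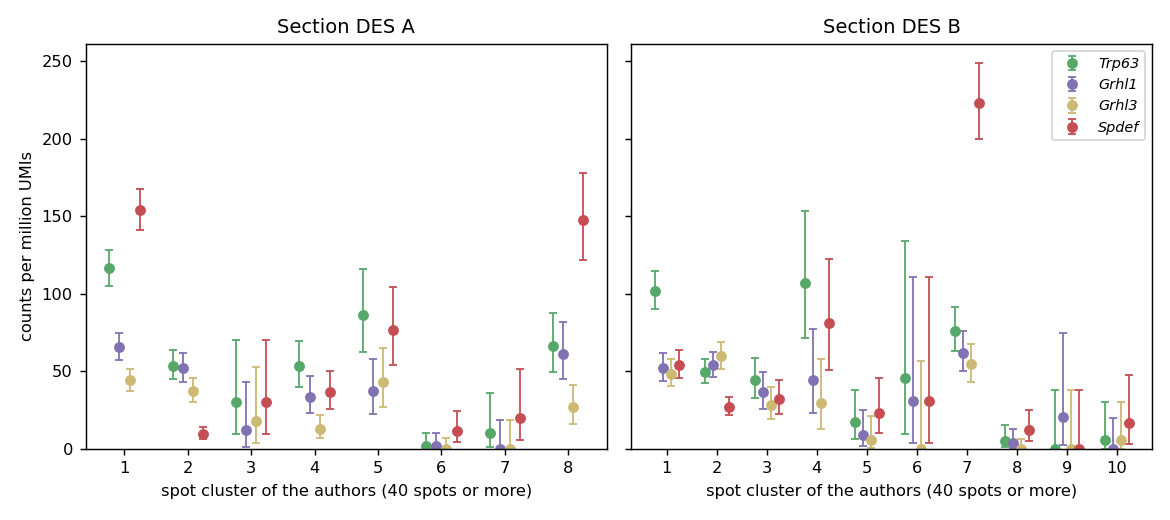
Levels of Trp63, Grhl1, Grhl3 and Spdef in CPM by spot cluster in DES A (left) and DES B (right), for clusters of 40 spots or more, with 95% Poisson intervals. Spdef peaks in clusters 1 and 8 of DES A and cluster 7 of DES B, while Grhl1 and Grhl3 stay between 26.6 and 65.7 CPM in clusters 1, 2 and 8 of DES A and 1, 2 and 7 of DES B.

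The gene lists chosen around the members gave the following in whole sections. Many of the called genes had also entered the test through the DES sections, so these counts are a description. Of 21 other epithelial transcription factors tested, 7 were higher in DES and 0 lower (0 to 10 higher over the alternatives), but only 2 of the 7, Foxa2 (2.72) and Creb3l4 (3.32), reached the low-count filter in both CO sections. Foxa1, a pioneer factor, was at 0 and 0.363 CPM in CO A and CO B and 10.7 and 31.1 CPM in DES A and DES B. Tfap2a was at 0, 0.272, 15.8 and 9.92 CPM and Pitx1 at 0.08, 1.18, 47.4 and 18.9 CPM in the same order.

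Of 29 squamous genes, 10 were higher, 8 of them past the filter in both CO sections, and 18 were higher without the 17 spots of CO B. Over all alternatives the count ran from 0, without either DES section, to 23, without CO B. Examples past the filter were the Notch ligand Jag2 (log2 3.78), Krt6b (3.63) and the cornified envelope gene Sprr1a (3.31). The desmosomal cadherin Dsg3 was at 0 CPM in both CO sections and 6.58 and 4.35 CPM in DES A and DES B.

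Non-basal single cells did not all run the same way as the sections. The sections also hold basal cells, and their part in this was not tested. Krt6b was at 6.33 CPM in CO and 0.305 CPM in DES non-basal cells (ratio 0.0481). Sprr1a was at 377 and 52.3 CPM (ratio 0.139), Dsg3 gave a ratio of 0.252 and Foxa1 one of 0.13. Foxa2 (2.19) and Creb3l4 (2.32) were higher in DES, as in the sections. In DES basal cells Krt6b, Sprr1a, Dsg3 and Foxa1 were at 1.52, 523, 20.2 and 21.7 CPM. For Sprr1a, Dsg3 and Foxa1 this was above the 377, 0.508 and 0.939 CPM of CO non-basal cells. For Krt6b it was below the 6.33 CPM of CO non-basal cells.

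Of 24 secretory genes 6 were higher (0 to 11 over the alternatives), 3 of them past the filter in both CO sections, namely Wfdc18 (3.66), Slpi (2.39) and Cldn4 (2.18). In the single cells Slpi was mesothelial, with 1055 and 2866 CPM in CO and DES mesothelial against 32.1 and 18.6 CPM in non-basal epithelial cells. The DES to CO ratio in non-basal cells was 7.03 for Wfdc18, 0.578 for Slpi and 0.247 for Cldn4. Tff1 was at 0.16 and 1.99 CPM in CO and 329 and 852 CPM in DES. Muc16, at 0.4, 0.634, 8.99 and 31.3 CPM, was mesothelial in the single cells, with 98.3 and 87.6 CPM in CO and DES mesothelial against 1.62 and 1.30 CPM in non-basal epithelial cells. Mesothelial markers stood at 5.84 and 6.07 CPM in the CO and 24.7 and 33.6 CPM in the DES sections. The part of mesothelial cells in the section values of Muc16 and Slpi was not tested. Among 16 paralogs of the members 1 was higher, Trp73, which was at 0, 0.634, 21.6 and 19.6 CPM and entered through the DES sections.

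In the epithelium-rich spots the same lists gave 6 of 19 other factors, 10 of 26 squamous genes, 8 of 24 secretory genes and 2 of 16 paralogs higher, of which 1, 6, 4 and 1 reached the filter in both CO sections. Over the alternatives these counts ran from 0 to 9, 20, 9 and 2, and 1 secretory gene, Wfdc2 (-1.12), was lower. Within the DES sections, 18 of 24 secretory genes were higher in epithelium-rich than in other spots, counting Cldn4, which helped choose the spots, against 3.1% of all genes, and 1 to 23 over the alternatives. There Spdef's 0.98 compared with 1.40 for Tff1, 1.39 for Muc16, 1.32 for Cxcl15 and 1.34 for Cldn4.

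Single cells gave levels by cell type. The epithelial cells numbered 2583 in CO and 5255 in DES, the latter of which 4608 lay in 16 non-basal clusters, 483 were basal (at least 2 UMIs each of Krt14 and of Trp63) and 168 were neither. The basal rule was also met by 4 of the 4608, so the basal and non-basal groups share 4 cells. The CO library had 0 cells of the basal kind. The libraries share 180 cell barcodes. With 1 library a group there is no test, and the intervals below cover counting error only. A difference of libraries and one of treatments cannot be told apart.

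Elf3, Ehf, Klf5, Grhl2 and Ovol1 were among the members seen more often in epithelial than in mesothelial cells in both libraries. The count of such members was 6 in the main setting and 6 to 8 over 2 alternatives, so those named are not all of them. The share of all genes with this order was not counted, so the count does not set the members apart. After thinning each cell to 3000 UMIs, Elf3 was seen in 75.9% of CO and 75.0% of DES epithelial cells, against 14.5% and 5.47% of mesothelial cells, a lining type that should lack it, and unthinned in 96.5% and 98.3% against 39.1% and 24.3%. Ehf was seen in 19.9% and 21.9% against 1.49% and 0.925%, and Klf5 in 31.5% and 22.2% against 9.08% and 6.72%. Grhl2 (10.8% and 13.9%) and Ovol1 (1.68% and 1.94%) were likewise epithelial, at 0.655% and 0.104% of CO and 0.661% and 0.132% of DES mesothelial cells. Mesothelial cells were shallower, with medians of 10436 (CO) and 12329 (DES) UMIs a cell against 23458 and 21900.

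Between non-basal epithelial cells of DES and CO, Trp63, Grhl1 and Grhl3 were at least 2-fold higher and none was at least 2-fold lower, where 18% of 17136 genes were higher by that size, 13.5% lower and 31.4% either, so 3 of 10 is near the share of all genes. Grhl3 stood at 5.85 CPM in DES and 0.355 in CO, a ratio of 16.5 (95% interval 11.3 to 24.9). Grhl1 was at 4.46 and 1.61 CPM (2.76, 2.29 to 3.37). Mesothelial cells of DES and CO had 0.248 and 0.0481 CPM of Grhl3 and 0.557 and 0.542 CPM of Grhl1. Trp63 was at 0.634 and 0.0761 CPM, from 104 and 6 UMIs (8.33, 3.70 to 23.2), but DES mesothelial cells had 0.48 CPM, so this level is near background and is not read as expression. It is also limited by the choice of cells, since the study took out basal cells by Krt14 and Trp63 before forming the DES clusters.

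Klf5 ran lower, at 80.0 against 125 CPM (0.638, 0.622 to 0.655), and Spdef had too few UMIs for a narrow interval. It had 32 UMIs in DES and 8 in CO, with a ratio of 1.92 and an interval of 0.867 to 4.83. Grhl2 (1.19), Ovol1 (1.03), Elf3 (0.875) and Ehf (1.09) had ratios closer to 1, and Elf5 (0.678, 0.497 to 0.928) had 103 and 73 UMIs.

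**Figure D4:**
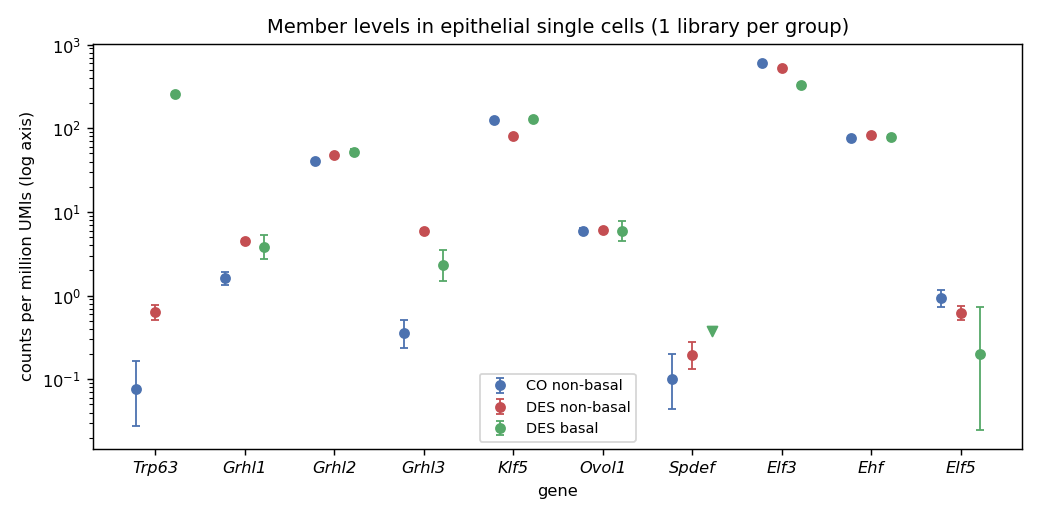
Level of each member in CPM (log axis) in CO non-basal, DES non-basal and DES basal epithelial cells, with 95% Poisson intervals; the triangle is the upper bound for Spdef in basal cells, where 0 UMIs were counted. Grhl3 rises from 0.355 CPM in CO to 5.85 CPM in DES non-basal cells, and the Trp63 level of basal cells is set by the rule that chose them.

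Between the 483 basal and the non-basal DES cells, 2 of the 9 members other than Trp63 differed at least 2-fold. That count is not above the share of all genes given below. Trp63, at 258 against 0.634 CPM, was fixed by the choice of cells. Of the 9 others, Grhl3 was lower at 2.33 against 5.85 CPM (ratio 0.398, interval 0.251 to 0.601, but 0.198 to 0.644 over the alternatives) and Elf5 was lower on 2 UMIs (0.322, 0.0385 to 1.19), where 12% of 16432 genes were at least 2-fold lower and 28.3% differed by that size in either direction. Klf5 was higher at 130 against 80.0 CPM (1.63, 1.53 to 1.72) and Elf3 lower at 333 against 532 CPM (0.626, 0.605 to 0.649). Grhl2, Ovol1 and Ehf gave ratios of 1.07, 0.985 and 0.937, with Grhl1 at 0.862 (0.605 to 1.195, and 0.488 to 1.26 over the alternatives).

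Spdef was counted 0 times in the basal cells, and 3 UMIs, the limit a count of 0 allows, would be 0.303 CPM, above the 0.195 CPM of non-basal cells, so no difference was detectable at this depth. Of 5255 DES epithelial cells, 26 had a Spdef UMI and 0 of these had a Trp63 UMI. Trp63 was seen in 12.6% of all DES epithelial cells, in 8.77% of cells with Grhl1, 5.65% of cells with Grhl3 and 8.02% of cells with Ovol1. Grhl3, in turn, was seen in 29.6% of cells with a Grhl1 UMI, against 14.2% of all DES epithelial cells. These shares were not thinned and follow depth as well as expression.

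Over the 16 DES clusters, Grhl1 ran from 0.788 CPM in cluster 13 to 19.5 CPM in cluster 5 (295 cells) and 17.3 in cluster 14 (67 cells). Grhl3 was also highest in cluster 5 (16.3 CPM) but lowest in cluster 7 (0.219 CPM), where Grhl1 was at 7.33 CPM. Cluster 5 was the second lowest for Klf5, at 53.6 CPM. Spdef had 32 UMIs in non-basal DES cells. Its 0.195 CPM over all these cells was close to the 0.183 CPM of the whole DES library. Mesothelial cells had 0.108 CPM, so this average is not read as expression. Of the 32 UMIs, 15 lay in the 295 cells of cluster 5, a concentration that the average does not show. It rests on few UMIs of 1 library and was not tested. In CO, by contrast, no cluster held more than 8 Grhl3 UMIs.

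Over 43 groups of at least 50 cells, the gene with the pattern most like Trp63's was Spink5, a protease inhibitor of stratified epithelia (Pearson's r = 0.92 on log2 CPM, described without a test), and Dlk2 (0.90) was also among the nearest. Grhl1 was nearest Zfp750, a factor of terminal epidermal differentiation (0.87), then Pla2g2c (0.82) and Lgals12 (0.80), and Grhl3 nearest the urothelial plaque gene Upk1a (0.88). Grhl2 and Ehf had Dlx5 among their 3 nearest (0.98 and 0.95), the others of Grhl2 being Sel1l3 (0.98) and Celsr2 (0.97) and those of Ehf Tmprss2 (0.96) and Sv2b (0.95). Elf3 had Tjp3, Cblc and Tspan1 (all 0.97), Klf5 F2rl1 (0.92), Krt18 (0.91) and Gprc5c (0.91), and Ovol1 Wfdc2 (0.88), Pax8 (0.86) and Spint1 (0.86). The groups come from 2 libraries and differ in depth.

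In DES, the assays differed more for Spdef than for any other member. The whole DES single-cell library held 53 Spdef UMIs in 45 of 16312 cells, 0.183 CPM, against 73.5 CPM over the DES sections, a ratio of 401. For Grhl1, Grhl3 and Trp63 the DES sections exceeded the library by 13.4, 9.60 and 6.40 times. Grhl2 (0.899), Ehf (1.11) and Ovol1 (1.11) were close to equal, and Klf5 was lower in the sections (0.427). In CO the ratio was 23.5 for Trp63, 8.09 for Grhl3 and 5.46 for Spdef. These rest on 83, 28 and 8 UMIs in the CO sections, and 72 of the 83 Trp63 UMIs came from CO B. Muc5b had 8 UMIs in the DES library (0.0277 CPM) against 323 and 135 CPM in DES A and DES B, and Krt6a 121 UMIs (0.419 CPM) against 547 and 221 CPM. Epcam was at 554 CPM in the library and at 435 and 501 CPM in the sections. What set this difference between the assays was not tested.

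**Figure D5:**
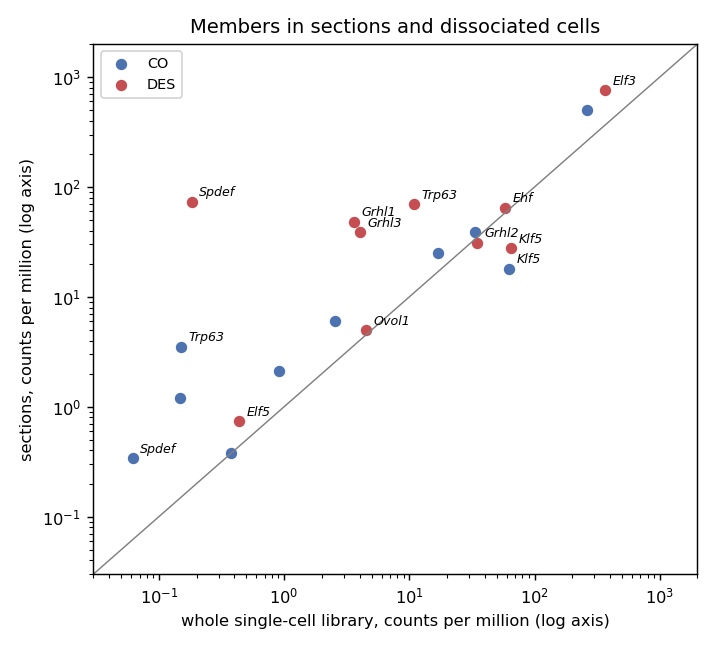
Level of each member over the pooled sections of a group (vertical, CPM, log axis) against its level in the whole single-cell library of that group (horizontal, CPM, log axis), CO in blue and DES in red; the grey line marks equal levels. Spdef in DES lies at 73.5 against 0.183 CPM, farthest from the line.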

How the data were processed

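The authors deposited raw UMI counts per gene and cell for 2 single-cell libraries and per gene and spot for 4 sections, together with cell types and clusters. Per the submitters' processing notes these were made with bcl2fastq 2.20.0.422, Cell Ranger 3.0.1 and Space Ranger 1.2.2 on mm10, and per the study's methods doublets were removed with scran from the single cells, so none were called here. No counts were altered here. Counts were summed per section over all spots, epithelium-rich spots (top 25% by mean log of counts per 10000 of Epcam, Cdh1, Krt8, Krt18, Krt19 and Cldn4) or basal-keratin-rich spots (33.3% of these with most Krt5 and Krt14). Sums were tested with edgeR 4.0.16 (TMM factors, filterByExpr, glmQLFit and glmQLFTest, R 4.3.3), adjusted over all genes by Benjamini-Hochberg at 0.05, with standard errors from the F statistic. Section was a block where a section gave 2 sums. DESeq2 1.42.0 was an alternative, as were other factors, filters, spot sets and left-out sections. Both tests were tested on simulated data with known changes. With 2 sections a group, the spread behind each p-value is estimated largely with information shared over all genes. The p-values therefore do not measure a gene's own spread between sections, nor that between mice at large.

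Single cells, with 1 library a group, got no test. Their sums have exact 95% Poisson intervals and shares have exact 95% binomial intervals, which cover counting error only, and a count of 0 allows 3. Totals were 353460067 UMIs (CO) and 288919190 (DES). Cells without counts in the cell table numbered 350. Named were all members, up to 4 list genes per direction by size among those past the threshold, and the 3 genes with the most similar pattern (among genes of at least 20 CPM in 1 group), of which 1 is not reported here. Genes outside this rule, such as spot neighbours and cluster genes, were named after their values were seen. The members and lists were chosen with earlier results of these data known. Gene positions are from GENCODE M21.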

Additional observations from a re-analysis of the deposited data

Results flagged for a closer look

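For 5 members the epithelial enrichment, the log2 level in epithelium-rich over other spots, differed between the DES and CO sections by the test of the difference itself (edgeR, section as a block, adjusted over all genes). The differences were -1.72 for Grhl2, -0.98 for Klf5, -1.58 for Ovol1, -1.52 for Elf3 and -1.01 for Ehf, each smaller in DES. Grhl2 and Elf3 passed in DESeq2, Klf5 and Ehf did not, and Ovol1 was given no adjusted p by it. Grhl2 also passed with any 1 section left out. Klf5, Ovol1 and Ehf lost the call without DES A (-0.87, -1.82 and -0.94) and without DES B (-0.92, -1.22 and -0.92), and Elf3 lost it without DES B (-1.44, adjusted p = 0.0555). All 6 genes that chose the spots gave differences of the same sign, and their part in these values was not tested.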

How the results depend on the processing

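Of 531 values of single members under alternatives in the sections, 438 kept direction and side of the threshold, 51 lost and 29 gained the call, and 13 changed sign. With 1 section left out, called members ranged from 1 to 5 in whole sections, 0 to 5 in epithelium-rich spots, 0 to 8 for enrichment within DES and 1 to 6 for its difference. DESeq2 called 2, 2 and 1 for enrichment within DES, its difference and the basal-keratin-rich spots. The difference gave 3 with the top 15% of spots, and the keratin comparison 0 without the section block. In single cells, the count of members that differed 2-fold between basal and non-basal cells, 2 in the main setting, ran from 1 to 3 over 6 alternatives. The changes of sign, in log2, were these. With 1 section left out, Grhl2 in whole sections ranged from -0.034 to 0.22, and in epithelium-rich spots Klf5 ranged from -0.18 to 0.16, Elf3 from -0.41 to 0.28 and Ehf from -0.036 to 0.30. The enrichment difference of Grhl1 ranged from -0.55 to 0.17 and was 0.72 with the top 40% of spots. Klf5 in epithelium-rich spots was 0.092 with the top 15%, 0.075 with 3 markers and 0.030 without the 17 spots. Trp63 enrichment within DES was -0.050 with the top 15%, and Grhl3 was -0.043 with the larger basal-keratin-rich set. Section numbers shared by CO and DES did not pair the sections (r of deviations -0.03 and 0.03), and with them as a replicate block 3 members were called in whole sections and 3 in epithelium-rich spots. Causes were not tested. With 2 sections a group, the calls depend on each section.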

Other observations

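Spdef had 8 UMIs in the CO epithelial cells, and 5 of these lay in 1 of the 15 CO clusters, cluster 13, with 62 cells and a median of 12201 UMIs a cell. The same cluster had 262 CPM of Ehf, the highest of the CO clusters, where the median cluster had 76.2 CPM, and 136 CPM of Elf3 against a median of 604 CPM. Ovol1 ran over the CO clusters from 0.724 CPM in cluster 10 to 19.4 CPM in cluster 3, a cluster that also had the most Klf5 (246 CPM). In DES the corresponding range of Ovol1 was narrower, from 2.96 CPM in cluster 7 to 8.57 CPM in cluster 0.

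Trp63 was counted 17 times in the 1326 CO stromal cells (1.45 CPM), against 6 times in the 2583 CO epithelial cells (0.0761 CPM).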
